A study of Mus musculus with 12 samples.

Results

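Tubulin genes were followed in mouse oocytes through meiotic maturation. The rule took 10 genes by name, the alpha-tubulins Tuba1a, Tuba1b, Tuba1c and Tuba4a, the beta-tubulins Tubb2a, Tubb2b, Tubb4b, Tubb5 and Tubb6, and the gamma-tubulin Tubg1, with every probe set named by a RefSeq transcript of theirs. Of these 10, 5 had a probe set, 1 each: Tuba4a, Tubb2a, Tubb5, Tubb6 and Tubg1, out of 16579 genes measured in all. Tuba1a, Tuba1b, Tuba1c, Tubb2b and Tubb4b were not analysed here. The values are of mRNA bound to polysomes, the ribosome-laden fraction taken as being translated, on 12 Affymetrix arrays. Mice were primed with PMSG, a hormone that drives follicle growth, and given hCG, a mimic of the ovulatory surge, after 48 h. Germinal vesicle (GV) oocytes, arrested in prophase, came at hCG 0 h, and metaphase II (MII) oocytes, mature eggs, at hCG 14 h. The 4 groups of 3 arrays were oocytes of both stages from wild-type and from Areg -/- mice. Areg -/- mice lack amphiregulin, an EGF-family ligand made by the somatic cells around the oocyte, and are called knockout here. All groups share the strain label C57BL/6J 129Sv and the hormone regime. The labels give no animal age, and how many animals or oocytes made a sample is not stated either. The p values therefore measure the spread between these samples, which the titles call biological replicates.

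Microtubules are polymers of alpha- and beta-tubulin dimers, and in the oocyte they build the spindle that divides the chromosomes in both meiotic divisions. Mammals carry several genes for alpha- and for beta-tubulin, whose products, called isotypes, differ mostly in the acidic tail at the carboxyl end. Gamma-tubulin does not join the polymer wall but sits in a ring complex from which microtubules start. Mouse oocytes lack centrioles, so their spindle grows from many organising centres that carry this complex.

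The arrays carried the RNA of oocytes. The 10 oocyte markers, zona pellucida and egg factor genes among them, all lay above the array median in each group. Of the 20 cumulus and granulosa markers, 2 to 5 lay above the array median, and their summed log2 values ran from 90.8 to 104.3 at GV and from 92.3 to 103.8 at MII, ranges that overlap. From GV to MII 1 of these 20 was higher and 1 lower in wild type, and 1 was higher and 2 lower in the knockout, against 8.97% of all genes higher and 12.6% lower in wild type and 13.0% and 15.2% in the knockout. Leaving out 1 array moved these counts, to 3 lower in wild type without wild-type GV 1, to 2 higher in wild type without knockout MII 1, and in the knockout to 4 higher without knockout MII 1, 3 without knockout MII 2, 2 without wild-type GV 1 or GV 3 and 0 without knockout GV 2. Hsd17b1 was lower in both genotypes (-2.85 and -2.39), and Gja1 was lower in the knockout (-4.17) without passing in wild type (-1.89). Cyp19a1 was higher in wild type (2.13) without passing in the knockout (1.1), and Kitl in the knockout (1.63) without passing in wild type (1.32). Of 11 measured markers of blood, endothelium, theca and stroma, 2 or 3 lay above the array median, with sums of 53.5 to 58.0 for GV and 53.8 to 59.2 at MII. Of these, 1 was higher and 1 lower in wild type, and 3 were higher and 1 lower in the knockout, beside the same shares of all genes. The higher genes were Pecam1 (1.59) in wild type and Emcn (1.18), Lyz2 (0.95) and Acta2 (0.66) in the knockout. The lower gene was C1qb in both (-2.68 and -2.88), and both calls were lost with the spread of each array as a covariate (-1.80 and -1.48). Under that covariate the higher count was 0 in each genotype. The knockout higher count was 0 without knockout GV 2 and 1 without any of knockout GV 1, GV 3, MII 2 or MII 3 or wild-type GV 2, and the lower count in wild type was 2 without wild-type GV 3. Of the oocyte markers 4 were lower and 2 higher at MII in each genotype. Padi6 was at -2.19 and -1.87, Zp2 at -2.19 and -1.95 and Zp1 at -2.01 and -1.9. The higher ones were Mos at 1.35 and 1.46 and Oosp1 at 0.89 and 0.94. Areg itself was near the floor in all groups and did not pass the limma test between genotypes, so it could not check the labels (its GV difference, knockout against wild type, was 0.13 [-0.41, 0.67] and its MII difference -0.04 [-0.58, 0.50] on the log2 scale). The interquartile range of an array's log2 values was 4.03 to 4.72 for GV arrays and 3.36 to 4.05 for MII arrays, and the groups overlapped only between wild-type GV 3 and wild-type MII 3. The 3' minus 5' log2 signal, a sign of RNA integrity and labelling, moved in opposite directions for the control transcripts. For Actb it was -0.55 to 1.16 at GV and -1.35 to -0.48 at MII. For Gapdh it was 1.64 to 2.19 at GV and 2.79 to 3.74 at MII in wild type, and 1.91 to 3.33 and 2.13 to 3.34 in the knockout, where the stages overlapped. The part of these array features in the tubulin values was not tested.

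The genome just upstream is shown for the measured members Tuba4a, Tubb2a and Tubb5, which fell in both genotypes, though by unequal amounts. It is also shown for the related gene Tubb3, chosen after its values were seen, which rose in wild type and did not pass in the knockout. Windows of Tube1, Tuba3a and Tubg2 were at hand and are not shown. No link between these windows and the stage change was tested. Each line holds the 250 bases before the annotated start, from RefSeq on GRCm38.p6, read 5' to 3' on the gene's strand. Of the 10 genes of the rule, 7 had an entry, and of the 5 measured ones 3 did. Capitals mark a TATA box, a CCAAT box or a GC box on either strand, promoter words that are spelled out after the lines and do not overlap one another here.
Tuba4a, chr1:75219295-75219544, - strand: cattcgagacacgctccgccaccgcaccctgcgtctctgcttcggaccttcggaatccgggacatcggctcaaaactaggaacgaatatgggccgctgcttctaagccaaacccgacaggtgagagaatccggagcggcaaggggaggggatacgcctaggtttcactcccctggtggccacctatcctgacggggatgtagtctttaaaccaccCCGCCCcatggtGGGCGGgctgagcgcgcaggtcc
Tubb2a, chr13:34078009-34078258, - strand: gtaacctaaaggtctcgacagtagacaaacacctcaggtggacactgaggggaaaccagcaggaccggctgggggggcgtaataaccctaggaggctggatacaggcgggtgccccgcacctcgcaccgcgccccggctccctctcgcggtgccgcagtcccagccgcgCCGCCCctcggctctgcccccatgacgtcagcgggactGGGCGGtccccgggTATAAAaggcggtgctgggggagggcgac
Tubb5, chr17:35838302-35838551, - strand: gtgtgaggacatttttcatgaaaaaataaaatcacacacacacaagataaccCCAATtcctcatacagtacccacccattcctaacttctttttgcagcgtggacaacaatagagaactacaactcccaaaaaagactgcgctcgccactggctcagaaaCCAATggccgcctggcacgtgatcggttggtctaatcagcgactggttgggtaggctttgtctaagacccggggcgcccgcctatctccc
Tubb3, chr8:123411303-123411552, + strand: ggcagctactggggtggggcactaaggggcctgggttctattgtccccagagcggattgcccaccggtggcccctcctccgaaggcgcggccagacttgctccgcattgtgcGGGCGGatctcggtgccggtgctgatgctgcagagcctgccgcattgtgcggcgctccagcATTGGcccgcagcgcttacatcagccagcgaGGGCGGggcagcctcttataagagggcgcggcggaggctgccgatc
The TATA box, searched as TATAAA, was found 1 time, in Tubb2a, and 12.4% of 32851 annotated windows of the same length hold it. The GC box, searched as GGGCGG, was found 2 times each in Tuba4a, Tubb2a and Tubb3, and 32.7% of all windows hold it. The letters CCAAT were found 2 times in Tubb5 and 1 time in Tubb3, and 33.8% of all windows hold them. None of these 3 words was present in the windows of all 3 members that are shown. The GC content was 61.6% in Tuba4a, 68.4% in Tubb2a, 49.2% in Tubb5 and 68.0% in Tubb3, with a median of 52.4% over all windows. A match describes the letters alone.

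From GV to MII in wild type, polysome-bound mRNA fell for Tuba4a, Tubb2a, Tubb5 and Tubb6, by 2.11-fold to 6.68-fold. Tubg1 was lower by 2.99-fold without passing the test. That is 4 of 5 measured members lower by limma at an adjusted p under 0.05, against 12.6% of all genes lower at that threshold. In the knockout 5 of 5 fell, by 2.30-fold to 10.7-fold, against 15.2% of all genes. The members lay between the 59.7th and 99.7th percentile of genes on each array, whereas the shares of all genes include dim ones. A fit of only the genes with a mean above the median gene called 2144 lower in wild type and 2429 in the knockout. Over all 16579 genes those counts were 2087 and 2522, so the share called lower is larger among bright genes. Every MII array lay below every GV array in 4 of 5 members in wild type and 5 of 5 in the knockout, beside 17.8% and 19.9% of all genes. The median change of the members was -1.75 in wild type and -1.99 in the knockout on the log2 scale, beside 0.20 and 0.30 for all genes. The level of each member is an RMA log2 intensity, so a change is measured against the rest of that array. In such bulk samples, fewer oocytes carrying the transcript, less transcript in each oocyte and a smaller share of it on polysomes cannot be told apart.

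**Figure D1:**
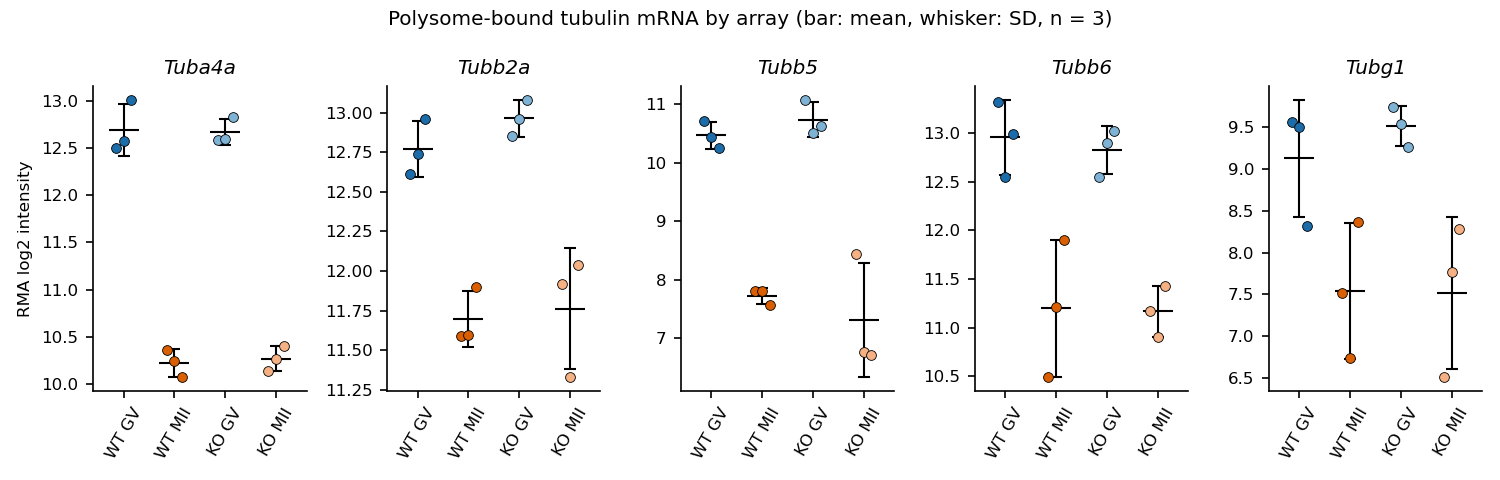
Each panel plots the RMA log2 intensity (vertical axis, with its own range in each panel that does not start at 0) of a measured member on the 12 arrays, with points for arrays, bars for group means and whiskers for the SD of 3 arrays (WT, wild type; KO, Areg -/-). The GV and MII arrays do not overlap for Tuba4a, Tubb2a, Tubb5 and Tubb6, while wild-type Tubg1 has a GV array at 8.32 below an MII array at 8.37.

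Tuba4a had the smallest standard error of the members. It encodes an alpha-tubulin whose gene, unlike most alpha-tubulin genes, does not code for the tyrosine at the end of the tail. Its log2 intensity in wild type was 12.50, 12.57 and 13.01 at GV and 10.36, 10.24 and 10.07 at MII. The knockout values were 12.58, 12.60 and 12.83 at GV and 10.14, 10.26 and 10.40 at MII. Every MII array lay more than 2 log2 units below every GV array, and the genotypes overlapped at both stages. In wild type Tuba4a fell by 2.47 ± 0.22 log2 units (SE, n = 3 arrays per group), 5.55-fold with a 95% confidence interval of 3.99 to 7.72. The knockout difference was -2.40 ± 0.22, 5.28-fold (3.80 to 7.35). The limma test gave adjusted p = 5.9e-05 and 5.3e-05, and the call held in 21 of 21 alternative settings in each genotype. A change as low or lower was seen in 5.87% of all genes in wild type and in 7.55% in the knockout.

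Among the beta-tubulins, Tubb5, the isotype found in most dividing tissues, had the largest fall of the 3 in both genotypes. Its log2 intensity in wild type was 10.71, 10.44 and 10.24 at GV and 7.81, 7.80 and 7.57 at MII. In the knockout it was 11.07, 10.50 and 10.62 at GV and 8.44, 6.77 and 6.72 at MII. Knockout MII 1 stood above the other arrays of its group, and still below every GV array. Tubb5 fell by 2.74 ± 0.41 in wild type, 6.68-fold (3.58 to 12.4), and fell by 3.42 ± 0.41 in the knockout, 10.7-fold (5.73 to 19.9), with limma adjusted p = 7.9e-04 and 2.2e-04. Over all alternatives the difference ran from -2.85 to -2.05 in wild type and from -3.98 to -2.29 in the knockout, called in 21 of 21 each time.

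Tubb2a, a beta-tubulin best known from neurons, was among the brightest transcripts of every array and had the smallest change of the members. Its log2 intensity in wild type was 12.61, 12.74 and 12.96 at GV and 11.59, 11.60 and 11.90 at MII. Knockout arrays gave 12.85, 12.96 and 13.08 at GV and 11.92, 11.33 and 12.04 at MII. The stages did not overlap, and at MII it still lay at or above the 96.4th percentile of genes on each array. It fell by 1.08 ± 0.24 in wild type, 2.11-fold (1.46 to 3.04, limma adjusted p = 0.0079), and fell by 1.20 ± 0.24 in the knockout, 2.30-fold (1.59 to 3.31, adjusted p = 0.0044). Fitting the spread of each array as a covariate, the knockout call was lost at nearly the same size (-1.18, adjusted p = 0.085).

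Tubb6, a divergent beta-tubulin, was also bright at both stages. Its log2 intensity in wild type was 13.32, 12.55 and 12.99 at GV and 10.49, 11.21 and 11.90 at MII. In the knockout it was 12.55, 12.90 and 13.02 at GV and 11.17, 10.90 and 11.43 at MII. All MII arrays lay below all GV arrays, with the widest scatter in wild-type MII (SD 0.71). It fell by 1.75 ± 0.35 in wild type, 3.37-fold (1.97 to 5.78, limma adjusted p = 0.0046), and fell by 1.66 ± 0.35 in the knockout, 3.15-fold (1.84 to 5.40, adjusted p = 0.0063). In the knockout the call did not survive the spread covariate (-1.67, adjusted p = 0.12) and was lost without the 3 MII arrays of narrowest spread (-1.66, adjusted p = 0.084). Those are MII 2 of the wild type and MII 2 and 3 of the knockout, so that knockout MII is then 1 array, assumed to vary like the other groups.

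Tubg1, the gamma-tubulin of the microtubule-nucleating ring, was dimmer and more variable. Its log2 intensity in wild type was 9.56, 9.50 and 8.32 at GV and 7.52, 6.74 and 8.37 at MII. In the knockout it was 9.74, 9.54 and 9.26 at GV and 6.51, 7.77 and 8.28 at MII. The stages overlapped in wild type through GV 3 and MII 3, and were apart in the knockout. The difference in wild type was -1.58 ± 0.53 (limma adjusted p = 0.055), and in the knockout Tubg1 fell by 1.99 ± 0.53, 3.98-fold (1.78 to 8.90, adjusted p = 0.018). The wild-type value passed without any of wild-type GV 3 (-1.98), wild-type MII 3 (-1.99), knockout MII 1 or knockout MII 3 (-1.58 each), with array weights and among bright genes alone. The knockout call was lost without knockout GV 1 (-1.88) or knockout GV 2 (-1.98), after a second quantile normalisation (-1.35) and under the spread covariate (-1.48), and its value was -3.0 with knockout MII 1 as the lone knockout MII array.

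The 3 beta-tubulins did not fall by equal amounts. The log2 difference of a pair was taken within each array, and its mean at MII minus that at GV was averaged over the genotypes. Such a difference cancels a shift common to a whole array, but not a difference in the spread of its log2 values. That spread moved with stage, the spread covariate was not applied to the pairs, and the part of spread in these differences was not tested. Tubb5 fell further than Tubb2a, by 1.94 log2 units, 1.66 in wild type and 2.22 in the knockout, and the 6 GV arrays (1.78 to 2.72) were apart from the 6 MII arrays (3.48 to 5.32) in Tubb2a minus Tubb5. The two-sided exact permutation test of stage within genotype gave p = 0.005, the smallest that 400 permutations allow, and adjusted p = 0.015 over the 3 pairs. Only Tubb5 with Tubb6 was planned, and both pairs with Tubb2a were added after the values were seen. Tubb5 minus Tubb6 fell by 1.37, from -2.75 to -1.48 at GV to -4.71 to -2.68 at MII, ranges that overlap slightly (exact permutation p = 0.01, adjusted p = 0.015). Tubb2a minus Tubb6 moved by 0.57 with overlapping ranges, -0.71 to 0.30 at GV and -0.01 to 1.10 at MII (exact permutation p = 0.015, adjusted p = 0.015). That last difference missed the threshold without wild-type GV 1 (0.43, adjusted p = 0.05 in the exact permutation test). After a further quantile normalisation the values were 1.73 for Tubb2a minus Tubb5, -1.17 for Tubb5 minus Tubb6 and 0.56 for Tubb2a minus Tubb6. The exact permutation test then gave adjusted p = 0.015, 0.03 and 0.022.

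**Figure D2:**
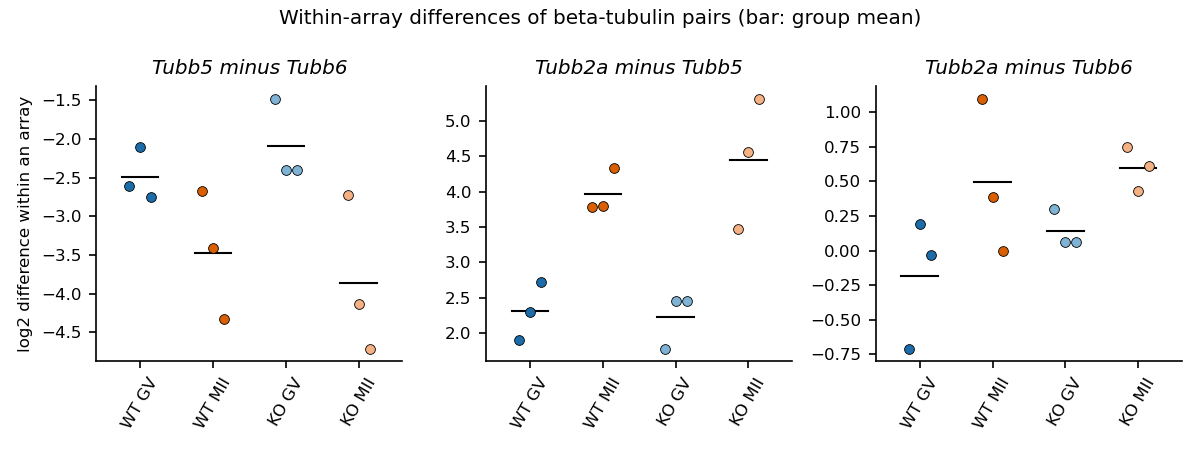
The log2 difference of 2 beta-tubulin genes within an array (vertical axis, in log2 units, with its own range in each panel) is plotted for the 4 groups, with points for arrays and bars for group means (WT, wild type; KO, Areg -/-). Tubb2a minus Tubb5 sits at 1.78 to 2.72 at GV and at 3.48 to 5.32 at MII, while Tubb2a minus Tubb6 overlaps between the stages.

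No measured member passed the test between genotypes at either stage. Of the 5 measured members 0 passed at GV and 0 at MII by limma, and 0 had an unadjusted p under 0.05, while over all genes 0% passed at GV and 0.0603% at MII. At the GV stage the difference, knockout less wild type, was -0.03 [-0.50, 0.45] for Tuba4a, 0.19 [-0.33, 0.72] for Tubb2a and 0.26 [-0.63, 1.16] for Tubb5 (log2, 95% confidence interval). It was -0.13 [-0.91, 0.65] for Tubb6 and 0.39 [-0.77, 1.55] for Tubg1. At MII it was 0.04 [-0.43, 0.52] for Tuba4a, 0.07 [-0.46, 0.60] for Tubb2a and -0.41 [-1.31, 0.48] for Tubb5. The Tubb5 value was -0.98 without knockout MII 1 and 0.75 when that array alone stood for knockout MII, passing in neither case. For Tubb6 it was -0.03 [-0.81, 0.75] and for Tubg1 -0.03 [-1.19, 1.13]. The intervals are narrowest for Tuba4a and widest for Tubg1, and each spans 0.

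The stage change was also compared between genotypes, as the knockout's change minus the wild type's. It was 0.07 [-0.60, 0.74] for Tuba4a, -0.12 [-0.87, 0.62] for Tubb2a, -0.68 [-1.95, 0.59] for Tubb5, 0.10 [-1.0, 1.20] for Tubb6 and -0.42 [-2.06, 1.22] for Tubg1. By limma 0 of 5 passed, 0 had an unadjusted p under 0.05, and 0% of all genes passed (adjusted p = 0.94 to 0.98). Each of these comparisons uses the same 12 arrays, and the stage and genotype contrasts share groups.

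Other tubulin genes, taken from a list of 10 of which 7 were measured, did not all follow the members. In wild type 2 were higher and 2 lower, with a median of 0.31, and in the knockout 1 was higher and 3 lower, with a median of 0.49 (all genes, 8.97% higher and 12.6% lower in wild type, 13.0% and 15.2% in the knockout). Tuba3a, an alpha-tubulin known from testis, fell by 2.59 ± 0.66 in wild type and fell by 2.78 ± 0.66 in the knockout (limma adjusted p = 0.016 and 0.011), the first of which was lost without wild-type GV 3 (-2.42, adjusted p = 0.052). Tubg2, the second gamma-tubulin, fell in both, with differences of -2.07 ± 0.34 and -2.93 ± 0.34 (limma adjusted p = 0.0014 and 1.8e-04). Its log2 intensity was 11.30, 11.54 and 10.75 in wild-type GV and 9.18, 9.12 and 9.09 in wild-type MII, so both measured gamma-tubulins had lower means at MII.

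Tube1 and Tubb3 moved the other way. Tube1 encodes epsilon-tubulin, a protein of centrioles, and rose by 2.01 ± 0.43 in wild type and 2.14 ± 0.43 in the knockout (limma adjusted p = 0.0062 and 0.0044). Its log2 intensity was 7.89, 6.41 and 7.20 in wild-type GV and 9.19, 9.30 and 9.03 in wild-type MII, with no overlap, and the same held in the knockout. The knockout call of Tube1 was lost under the spread covariate (2.44, adjusted p = 0.068). Over all genes every MII array lay above every GV array in 21.4% in wild type and 31.7% in the knockout. Tubb3, a beta-tubulin used as a marker of neurons, was named here after its values were seen. It was 11.53, 12.45 and 12.02 in wild-type GV and 13.38, 13.75 and 13.97 in wild-type MII, and rose by 1.70 ± 0.41 (adjusted p = 0.012). The rise was lost without wild-type GV 1 (1.47, adjusted p = 0.054), without the 3 narrow MII arrays (1.68) and under the spread covariate (1.59). In the knockout Tubb3 was 1.14 ± 0.41 higher without passing (adjusted p = 0.058), and it passed without knockout GV 2 (1.53). The difference between the genotypes' changes was -0.56 [-1.84, 0.71] and did not pass the limma test (adjusted p = 0.94).

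The remaining genes of that list were also named after their values were seen. Tubd1, which encodes the centriolar delta-tubulin, had the value furthest from its group. Its log2 intensity was 7.37, 11.77 and 7.79 in knockout GV, where knockout GV 2 stood apart, and 3.97, 4.16 and 4.92 in knockout MII. The stage difference was -4.63 ± 0.92 in the knockout (limma adjusted p = 0.0041), with the lowest and highest value over all alternatives at -5.44 and -3.24. That call was lost under the spread covariate (-5.28) and with knockout MII 1 as the lone knockout MII array (-5.01). In wild type it was -2.55 ± 0.92 (adjusted p = 0.072), and that value passed without knockout GV 2 (adjusted p = 0.0013). Tuba8 and Tubb4a did not pass at either genotype (0.31 and 0.72 for Tuba8, 0.32 and 0.49 for Tubb4a).

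**Figure D3:**
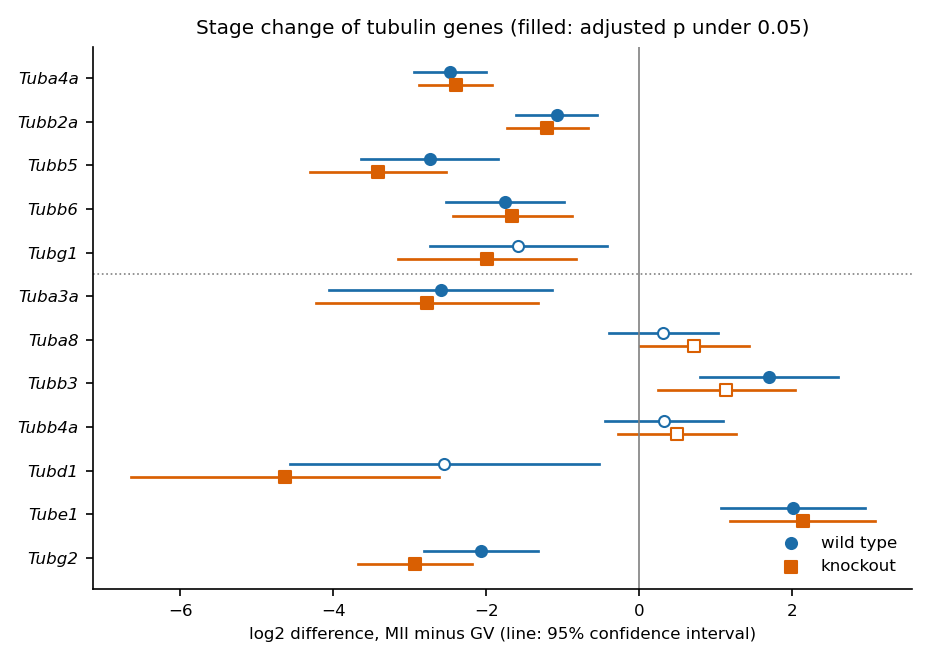
Points give the log2 difference, MII minus GV (horizontal axis), of the 5 measured members above the dotted line and of 7 other tubulin genes below it, with circles for wild type, squares for the knockout and lines for 95% confidence intervals. All 5 members lie left of 0, from -3.42 to -1.08, while Tubb3 and Tube1 lie right of it, from 1.14 to 2.14, and filled symbols mark an adjusted p under 0.05.

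Newly made tubulin is folded by prefoldin, the CCT chaperonin and the cofactors of Tbca to Tbce, and most of the genes on this list were lower at MII. Of 22 genes, all measured, 16 were lower and 0 higher in wild type, against 12.6% and 8.97% of all genes. In the knockout 15 were lower and 1, the prefoldin subunit gene Pfdn4 (1.14), was higher, against 15.2% and 13.0%. The medians were -1.92 and -1.97, and 6 genes did not pass in each genotype. Tbcb, the cofactor that binds alpha-tubulin, fell by 5.11 ± 0.52 in wild type and fell by 5.53 ± 0.52 in the knockout. Arl2, a small GTPase that works with the cofactors, changed by -3.90 ± 0.37 and -4.20 ± 0.37, and the chaperonin subunit gene Cct3 changed by -3.62 ± 0.41 and -3.75 ± 0.41. All 6 values passed limma, with adjusted p from 5.1e-05 to 1.8e-04. Under the spread covariate the lower counts were 10 and 8, and the higher count in the knockout was 0, so the Pfdn4 call was lost. Without wild-type MII 2 the higher count in wild type was 2.

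The ring complex that holds gamma-tubulin, with its recruiters and the augmin complex that branches microtubules, was mixed. Of 19 measured genes of 20, 6 were lower and 2 higher in wild type, and 7 were lower and 1 higher in the knockout, with medians of -0.27 and -0.79 (all genes, 12.6% lower and 8.97% higher in wild type, 15.2% and 13.0% in the knockout). Of the genes called in both genotypes, the 3 with the largest wild-type changes were augmin subunits. Haus8 changed by -5.32 ± 0.53 and -4.21 ± 0.53, Haus7 changed by -3.06 ± 0.51 and -3.20 ± 0.51, and Haus1 by -3.65 ± 0.90 and -3.73 ± 0.90 (limma adjusted p = 9.5e-05 to 0.013). The wild-type call of Haus1 was lost without wild-type GV 1 (-3.44), both calls were lost under the spread covariate (-2.26 and -1.52), and without that array 2 genes of the list were lower in wild type. The higher count in wild type was 0 without wild-type GV 1, GV 3 or MII 3 and 1 without MII 2. In the knockout it was 0 when any of knockout GV 1, GV 2, GV 3 or MII 3 was left out, and under the spread covariate 2 genes were lower in each genotype.

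Of 20 measured enzyme genes, out of 25, that modify tubulin tails or acetylate tubulin, 1 was higher and 2 were lower in wild type (median 0.36). In the knockout 2 were higher and 4 lower (median 0.51). Over all genes 8.97% were higher and 12.6% lower in wild type, and 13.0% and 15.2% in the knockout, so these counts lie near the background. Ttll1, a catalytic subunit of a polyglutamylase, changed by -1.34 ± 0.27 and -2.39 ± 0.27, and Ttll11, of the same enzyme family, by -1.17 ± 0.34 and -1.68 ± 0.34. Leaving out wild-type GV 1, GV 2, MII 2 or MII 3 ended the wild-type call of Ttll11 (-1.12 to -1.03), and the spread covariate ended both (-1.12 and -1.60). Agtpbp1, which removes glutamates from tubulin tails, rose by 1.31 ± 0.28 and 1.09 ± 0.28 (limma adjusted p = 0.0065 and 0.017), the second lost without knockout GV 1 (0.88), under the spread covariate (1.3), with the mean of its probe sets (0.55) and with knockout MII 1 as the lone knockout MII array (1.32). Array weights raised the wild-type counts to 5 higher and 4 lower. The wild-type higher count was 2 without wild-type MII 2, knockout MII 2 or knockout MII 3, and the lower count 1 without wild-type GV 1 or MII 3. In the knockout the higher count was 0 without GV 1 and 1 without GV 2 or GV 3, and the lower count 2 without GV 3.

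Of 28 measured genes of microtubule dynamics and stability, out of 31, 5 were higher and 3 lower in wild type, and 6 were higher and 4 lower in the knockout, with medians of 0.32 and 0.58. Over all genes 8.97% were higher and 12.6% lower in wild type, and 13.0% and 15.2% in the knockout. Clasp2, which steadies growing microtubule ends, rose by 1.80 ± 0.27 and 1.25 ± 0.27. Ttc5, which recognises tubulin as it leaves the ribosome and sets off decay of its mRNA, changed by -3.28 ± 0.74 and -2.75 ± 0.74. Camsap3, which binds microtubule minus ends, changed by -2.22 ± 0.58 and -3.19 ± 0.58. All 6 values passed limma, with adjusted p from 8.0e-04 to 0.02. Leaving out knockout GV 1, GV 2 or MII 2 ended the knockout call of Ttc5 (-2.78 to -2.61), as did the spread covariate (-3.19). Leaving out GV 1, GV 2, MII 1 or MII 3 of the wild type ended the wild-type call of Camsap3 (-2.23 to -2.08). The spread covariate ended both calls of Camsap3 (-1.60 and -2.21) and the knockout call of Clasp2 (1.49). With knockout MII 1 as the lone knockout MII array the knockout calls of Camsap3 (-1.93) and Clasp2 (1.36) were lost. Without wild-type GV 1, MII 1 or MII 3 the lower count in wild type was 1, and without knockout GV 2 or knockout MII 3 the higher count in the knockout was 2 and 3. The lower count in the knockout was 0 under the spread covariate and 2 with the lone knockout MII array.

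**Figure D4:**
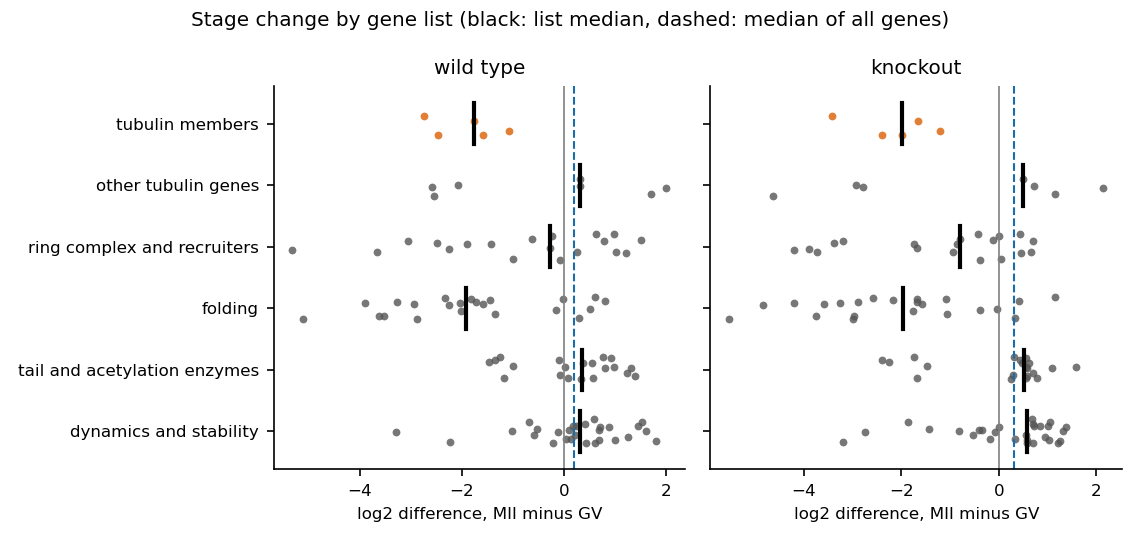
Each point is the log2 difference, MII minus GV (horizontal axis), of a gene of the list named on the vertical axis, in wild type (left) and in the knockout (right), with black bars for list medians, a dashed line for the median of all genes (0.20 and 0.30) and vertical scatter that carries no value. The members (orange) and the folding genes have medians of -1.75 and -1.92 in wild type, while the other 4 lists have medians of -0.27 to 0.36.

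For each member that fell in both genotypes, the genes most like it over the 12 arrays were found as the smallest root mean square difference after each gene's own mean was removed. Tuba4a was closest to Prkrip1 (0.22 log2 units) and Pde6d (0.23), against a root mean square of 1.23 for Tuba4a itself. Tubb2a was closest to Oas1e (0.18) and Slc44a2 (0.19), against 0.61. Tubb5 was closest to Tmem199 (0.32) and the proteasome subunit gene Psma6 (0.37), against 1.61. Tubb6 was closest to Atp5a1, a subunit gene of ATP synthase, and Pacsin1 (0.26 each), against 0.93. Each of these genes had a lower mean at MII in both genotypes, which follows from how they were chosen. Prkrip1 was at -2.45 and -2.11 and Tmem199 at -2.40 and -3.28.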

How the data were processed

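The deposited values are log2 intensities that the authors made with RMA, per the submitters' processing notes, with version and options not given in the sources used here. That method subtracts background, forces the probe values of all arrays to one distribution and combines the probes of a set. The gene values used here still differed in spread, with interquartile ranges of 3.36 to 4.72 over the arrays. Per the labels' protocols, polysome-bound mRNA was purified, reverse transcribed, amplified with a NuGEN kit and biotin labelled, although the molecule field names total RNA and the description fields speak of embryos. No array of unfractionated RNA was used here.

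Of 23886 RefSeq probe sets 21230 matched 1 symbol through a RefSeq table of GRCm38.p6. The brightest probe set stood for each gene, 16579 in all, and 0 per-sample columns were unused. No detection calls were used, and precision is limited by the 12 arrays. Probe sequences were not used here, so signal from near-identical tubulin transcripts was not tested. All 12 arrays entered a limma 3.58.1 fit in R 4.3.3 with a mean per group, with Benjamini-Hochberg adjustment across all genes, called below 0.05. Alternatives were a further quantile normalisation, the array spread as a covariate, trend and robust fits, array weights, other filters and probe set rules, a replicate block, and leaving out each array. Pairs of beta-tubulins were compared by an exact permutation test. Of the 6 pairs planned, only Tubb5 and Tubb6 could be compared, and the other 2 pairs of measured beta-tubulins were added after the values were seen. The members, lists and alternatives were chosen with earlier results of these data known. The genes named from a list were up to 3 with the largest wild-type change among those called in both genotypes. Tubb3, Tubd1, Tuba8, Tubb4a, Pfdn4 and Gja1 were added after their values were seen. So were the markers Cyp19a1, Kitl, Pecam1, Emcn, Lyz2, Acta2, Mos and Oosp1. The 2 nearest genes of each member called in both genotypes were those with the smallest root mean square difference.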

Additional observations from a re-analysis of the deposited data

How the results depend on the processing

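All 5 measured members were lower at MII than at GV under each of the 21 alternatives in both genotypes. The number of members called was 4 to 5 in wild type without each array in turn, and 4 to 5 in the knockout. Under the spread covariate, which moves with stage, 2 members were called in the knockout in place of 5 (Tuba4a and Tubb5), and the cause was not tested. After a further quantile normalisation the median of all genes shifted by -0.08 in wild type and -0.13 in the knockout (-0.25 and -0.35 under the spread covariate), and 4 members were called in each. In the genotype and interaction comparisons 0 members were called under every alternative. With every probe set tested on its own the same counts of 4 and 5 were found. Leaving out each array, the unequal change of Tubb2a and Tubb6 ran from 0.41 to 0.69, that of Tubb5 and Tubb6 from -1.65 to -1.16 and that of Tubb2a and Tubb5 from 1.72 to 2.18.

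Over all genes the knockout stage count of 4672 became 1796 with the spread covariate, 2745 without the 3 narrow arrays (which leaves 1 knockout MII array), 2882 without knockout GV 1 and 3029 without knockout GV 2. Of the called genes 41.6% were higher in wild type and 46.0% in the knockout, against 54.0% and 56.8% after a further quantile normalisation. Between genotypes the count was 0 at GV (17 with array weights, up to 3 without an array) and 10 at MII (0 with the replicate block, 0 to 32 over all alternatives), and for the interaction 0 (up to 1).

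The labels do not say that a replicate number marks a shared litter, batch or day. Deviations from the group means correlated at -0.12 to 0.26 (median 0.13) for the same number and at -0.27 to 0.23 (median -0.04) for different numbers. For number 2 alone the values ran from -0.12 to 0.12. Wild-type GV 3 was at 0.23 with wild-type MII 2 and at -0.10 with wild-type MII 3. By mean correlation 7 of 12 arrays were closest to their own number. Whether the number marks a pairing was not tested. With the replicate block 4 and 5 members were called, the stage counts were 3749 and 4967 genes, and the genotype count at MII was 0. The knockout rise of Tubb3 passed with the block (1.14, adjusted p = 0.035). Over the alternatives, sign was followed for the tubulin genes, Areg, the genes named by rule from each list and the beta-tubulin pairs. Among these 0 called values changed sign.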
